A study of Mus musculus with 48 samples.

Results

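The 37 genes described here are interferon-stimulated genes, which cells switch on when interferons bind their receptors. They were chosen as a list of gene symbols, grouped here by role. Of the 37, 36 had an FPKM value in the kidney cortex of these mice and were followed, out of 14320 features in all. Mx2 was without a value and is not analysed further. The RNA came from male C57BL/6 mice 6 to 8 weeks old, whose left renal pedicle was clamped for 40 minutes (severe model) or 20 minutes (mild model) and then released, an injury called ischemia/reperfusion injury (IRI). Each of 24 mice gave its clamped left kidney (called IRI) and its own right kidney (called control), which were sequenced 1 day or 3 days after the injury as labelled, which gives 8 groups of 6 kidneys: IRI and control, for 40 minutes and 20 minutes, on day 1 and on day 3. The labels name no transgene or other treatment, and every mouse went through the clamp. By the methods the right kidney was taken out ahead of the clamping, while the labels give the control the day of its left kidney, so when the controls were sampled is unclear. Effects of ischemia, of surgery and of living on 1 kidney cannot be told apart here. No control came from a sham-operated animal. Both kidneys of a pair come from 1 mouse.

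Interferons are signalling proteins that cells release when their sensors meet foreign or misplaced nucleic acid. Type I and type III interferons act on genes that carry the interferon-stimulated response element (ISRE), to which IRF9 binds, while interferon gamma acts mainly through the gamma-activated site (GAS). The genes switched on in this way encode RNA sensors, proteins that block viral replication, the ubiquitin-like modifier ISG15, and the machinery that loads peptides on MHC class I. In the kidney such genes can be expressed by tubular cells, endothelium and leukocytes alike. A change in bulk cortex RNA therefore cannot tell fewer cells of a type from less RNA per cell.

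The promoters of these genes in RefSeq (build GRCm38.p6, 250 bases before to 50 bases after the start, 300 bases each) are shown for 6 members that behaved differently in the kidneys. The first 3 are from members that were high together in single kidneys, and the others are from a member that rose with the severe injury, one that fell and one whose sum depended on the transcript. Capitals mark each match to the core of the ISRE, GAAANNGAAA on either strand, and sequences run 5′ to 3′ on the strand of the gene.
Isg15 (chr4:156200769-156201068, minus strand): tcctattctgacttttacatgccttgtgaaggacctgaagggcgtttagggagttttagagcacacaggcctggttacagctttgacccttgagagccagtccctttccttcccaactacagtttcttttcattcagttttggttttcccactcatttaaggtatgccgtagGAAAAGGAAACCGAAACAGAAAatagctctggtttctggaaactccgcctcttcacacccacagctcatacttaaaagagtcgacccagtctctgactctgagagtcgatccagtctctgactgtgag
Ifit3 (chr19:34583279-34583578, plus strand): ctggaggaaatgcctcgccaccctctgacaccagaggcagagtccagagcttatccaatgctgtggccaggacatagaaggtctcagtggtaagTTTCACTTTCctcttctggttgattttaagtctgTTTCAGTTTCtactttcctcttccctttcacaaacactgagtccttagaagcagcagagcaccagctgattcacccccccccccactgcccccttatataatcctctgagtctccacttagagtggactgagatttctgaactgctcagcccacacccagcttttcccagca
Bst2 (chr8:71537423-71537722, minus strand): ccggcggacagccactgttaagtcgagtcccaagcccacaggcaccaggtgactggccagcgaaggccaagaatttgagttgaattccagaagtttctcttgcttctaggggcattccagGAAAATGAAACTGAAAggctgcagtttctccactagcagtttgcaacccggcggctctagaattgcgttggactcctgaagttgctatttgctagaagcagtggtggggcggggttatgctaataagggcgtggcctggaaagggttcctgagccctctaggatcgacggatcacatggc
Ddx58 (chr4:40239776-40240075, minus strand): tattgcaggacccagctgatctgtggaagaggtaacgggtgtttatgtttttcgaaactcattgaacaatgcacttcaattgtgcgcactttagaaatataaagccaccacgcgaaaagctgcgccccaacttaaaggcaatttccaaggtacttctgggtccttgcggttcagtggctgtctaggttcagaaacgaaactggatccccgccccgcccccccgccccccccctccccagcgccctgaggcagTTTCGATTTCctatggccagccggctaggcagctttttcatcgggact
Ifi44 (chr3:151749861-151750160, minus strand): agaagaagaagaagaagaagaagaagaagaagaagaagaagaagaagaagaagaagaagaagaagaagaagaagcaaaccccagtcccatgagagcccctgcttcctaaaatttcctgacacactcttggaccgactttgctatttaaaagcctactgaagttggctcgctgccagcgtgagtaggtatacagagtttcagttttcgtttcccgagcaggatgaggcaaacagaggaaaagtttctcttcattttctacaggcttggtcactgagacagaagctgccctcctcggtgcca
Tap1 (chr17:34187306-34187605, plus strand): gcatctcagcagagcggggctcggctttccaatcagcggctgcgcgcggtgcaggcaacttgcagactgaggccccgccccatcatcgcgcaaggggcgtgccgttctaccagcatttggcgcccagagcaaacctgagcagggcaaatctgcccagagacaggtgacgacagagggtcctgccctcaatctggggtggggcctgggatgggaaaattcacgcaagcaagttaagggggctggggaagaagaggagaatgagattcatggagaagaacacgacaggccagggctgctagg
Of the 37 members 29 were matched to a promoter by symbol, and 14 of these 29 (48.3%) held the ISRE core, against 1079 of all 27025 symbols (3.99%). The shorter GAS pattern, TTCNNNGAA, was found in 8 of the 29 (27.6%) and in 2582 of the 27025 (9.55%). Isg15 held 3 overlapping matches and Bst2 2 overlapping ones, while Ifit3 held 2 that stand apart. The match in Ddx58 lies just past its start. No match was found in these windows of Ifi44 and Tap1, which says only that these letters are not in them. A match is a description of letters and not a measured binding site.

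The depth behind these values is not stored in the table, which holds FPKM, the fragments of a transcript scaled by its length and by all fragments mapped. From the steps between low values of 1648 genes with a single transcript, the depth was estimated at 9360000 to 15600000 fragments per library (median 12300000), as an approximate figure. The steps were searched within set limits, so no estimate could fall far outside this range. That of the 20-minute IRI kidney 3 of day 1 (9570000) rests on few values, with 0 at 1 step. Krt20, the cytokeratin that marks injured tubules, lay between 56.9 and 304 FPKM in the 12 kidneys after 40 minutes and between 0.334 and 107 FPKM in the 12 after 20 minutes, and at most 0.363 FPKM in the 24 controls. The summed level of 10 proximal tubule markers was 3074 to 5899 FPKM after 40 minutes and 8152 to 12493 FPKM after 20 minutes, against 12118 to 16131 FPKM in the controls. 3 libraries stand apart as high in the genes described here, namely the control kidney of replicate 6 (40 minutes, day 1), the control kidney of replicate 3 (40 minutes, day 3) and the IRI kidney of replicate 4 (20 minutes, day 3). The IRI kidney of replicate 6 (20 minutes, day 1) stands apart as low. Some counts and single members are also given without the 3 high libraries together or without 1 of them. Some are given without the low one alone. Where this was not done, a difference may still rest on these libraries. These libraries were singled out from the values of the same members, so calls gained by leaving them out are partly set by that choice.

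Across the 48 kidneys the members ranged widely in level. Ifi27l2a, a small mitochondrial protein induced by interferon, had the highest mean (21.2 FPKM), followed by Bst2 (20.7 FPKM), the membrane protein tetherin that holds budding virus at the cell surface, Trim25 (18.6 FPKM), a ubiquitin ligase in RNA sensing, and Ifit3 (16.4 FPKM), a member of the IFIT family that binds foreign RNA. At the other end stood Dhx58 (0.933 FPKM), a helper of the RNA sensors, and Oas2 (0.536 FPKM), which makes the signal that activates RNase L. FPKM is per length, so these levels can be set side by side between genes. No member was listed at 0 in any library, and all 36 passed the minimum of a mean of 0.01 FPKM in every comparison.

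**Figure D1:**
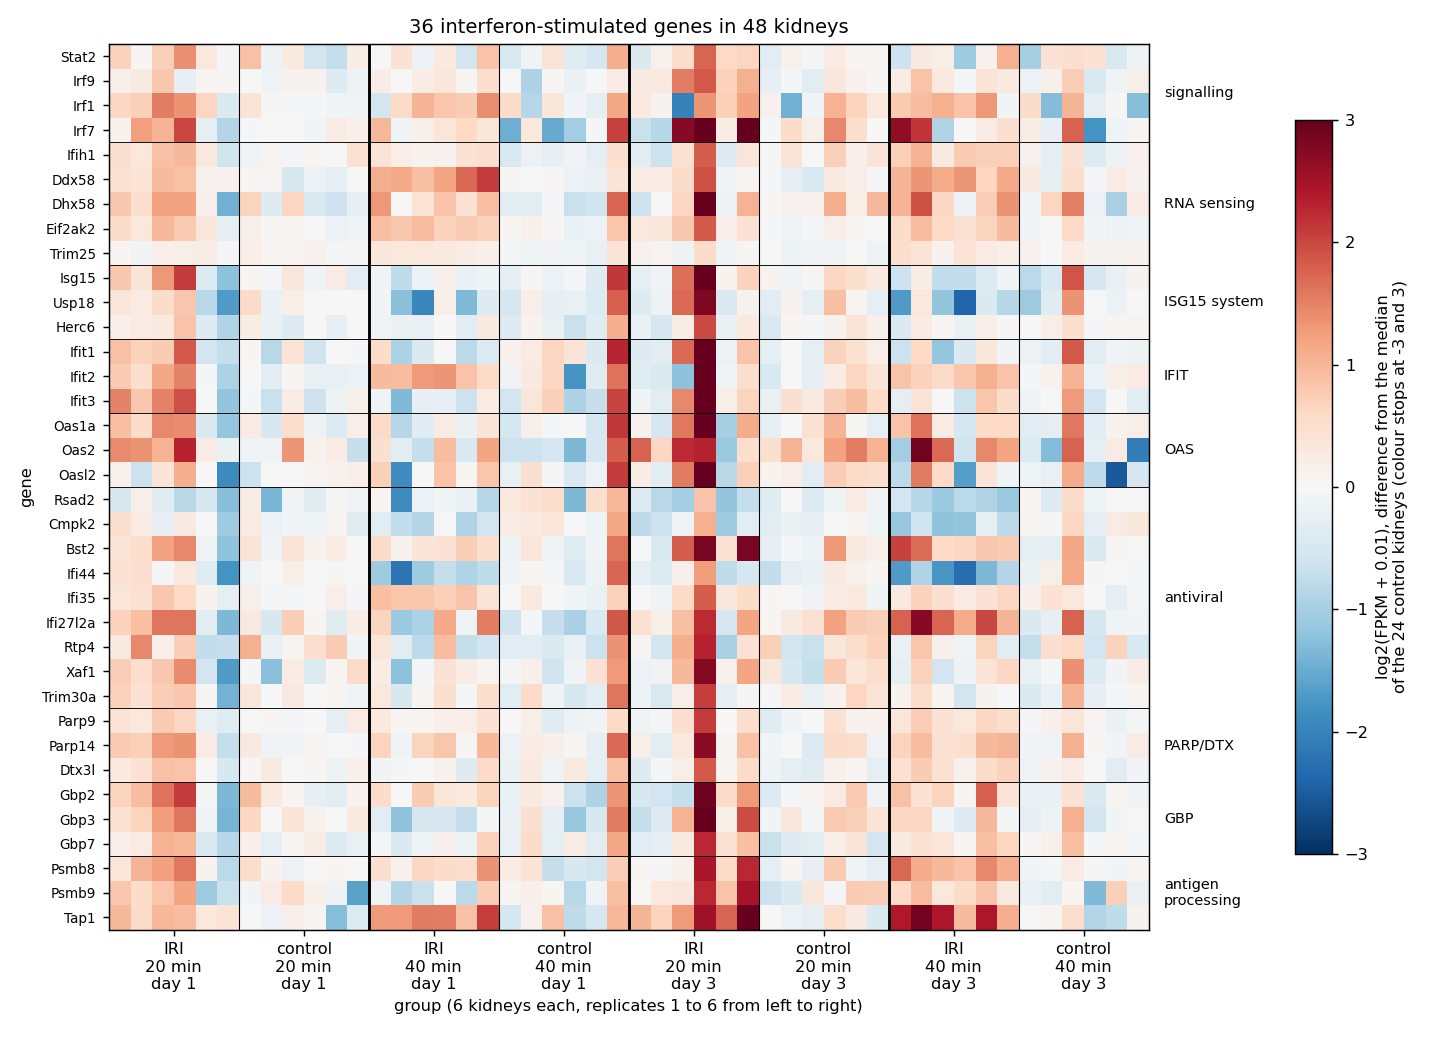
Colour map of the 36 members with a value (rows, grouped by role) in the 48 kidneys (columns, 6 per group, IRI left of its control). Colour is the difference of log2(FPKM + 0.01) from the median of the 24 control kidneys, and single columns stand out in red across most rows, above all replicate 4 of the 20-minute IRI kidneys on day 3.

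The most general feature of the list was a joint rise in single kidneys. The 20-minute IRI kidney of replicate 4 on day 3 had the highest level of its group in 34 of the 36 members, while it was highest for 41.3% of all genes averaging 0.5 FPKM or more. Its members lay 2.18 log2 units (median) above the median of the other 5 kidneys, against 0.16 log2 units for all genes. Isg15, the modifier that is attached to proteins in the interferon response, measured 45.3 FPKM in this kidney, against 3.40, 3.90, 13.2, 4.51 and 6.73 FPKM in the other 5. Ifit3 measured 99.3 FPKM there, against 8.83 to 30.7 FPKM in the other 5. This was also the kidney of its group with the highest Krt20, 107 FPKM against 1.29 to 2.19 FPKM in the others. It had the highest sums of macrophage markers (178 FPKM, others 87.4 to 133) and T and NK cell markers (7.95 FPKM, others 0.731 to 3.36). Its sums of neutrophil (26.1 FPKM, others 2.11 to 18.9), dendritic (5.71 FPKM, others 2.55 to 3.52) and endothelial markers (185 FPKM, others 127 to 176) were the highest too. Its B cell sum (1.29 FPKM, others 0.841 to 2.76) was not. The part of these in the result was not tested. The control kidney of the same mouse had the highest level of its group in 23 of 36 members (16.7% of all genes), for example 30.1 FPKM of Bst2 against 10.3 to 14.9 FPKM in the other 5 controls.

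Control kidneys could show the same joint elevation. In the control group of 40 minutes on day 1, replicate 6 was the highest in 36 of 36 members, while it was highest for 24.3% of all genes, and its members lay 1.52 log2 units (median) above the other 5. Isg15 was 18.2 FPKM in it, against 3.16 to 4.29 FPKM in the other 5 controls, and Ifi44, an interferon-induced microtubule-associated protein, was 15.2 FPKM against 3.30 to 4.76 FPKM. In the control group of 40 minutes on day 3, replicate 3 was the highest in 33 of 36 members (17.3% of all genes) and its members lay 0.97 log2 units above the others. Isg15 was 15.6 FPKM in it, against 2.38 to 4.47 FPKM in the other 5. Krt20 was 0.0428 and 0.0890 FPKM in these 2 control kidneys, within the range of the controls. The raised control of day 1 did have the highest sum of 8 injured tubule markers in its group (757 FPKM, others 487 to 705) and the lowest sum of proximal tubule markers (12118 FPKM, others 14243 to 16131), while that of day 3 lay within its group for both.

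The left kidneys of these 2 mice differed from each other. The IRI kidney of replicate 6 (40 minutes, day 1) was the highest of its group in 18 of 36 members (29.3% of all genes), and its members lay 0.38 log2 units above the other 5, against -0.03 for all genes. It had 3.84 FPKM of Isg15, within the 2.45 to 4.63 FPKM of its group. Its Krt20 was the lowest of the group (56.9 FPKM, others 131 to 304) and its macrophage sum (660 FPKM, others 125 to 362) and T and NK cell sum (4.83 FPKM, others 0.476 to 1.17) the highest, and their part was not tested. The IRI kidney of replicate 3 (40 minutes, day 3) was the highest in 0 members, which lay -0.18 log2 units from the other 5, and its 2.48 FPKM of Isg15 was the lowest of its group. In the raised control of day 1 the macrophage sum was 86.1 FPKM, within the 53.0 to 109 FPKM of its group. Its endothelial sum (248 FPKM, others 162 to 206), neutrophil sum (15.5 FPKM, others 3.16 to 10.3) and, by little, dendritic sum (4.06 FPKM, others 2.78 to 4.03) were the highest. In the raised control of day 3 the sums of macrophage markers (65.5 FPKM, others 40.6 to 59.5), neutrophil markers (12.2 FPKM, others 2.27 to 6.87) and dendritic markers (4.09 FPKM, others 2.40 to 3.36) were the highest. The T and NK cell sum of the raised day 1 control (2.85 FPKM, others 0.813 to 3.87) lay within its group. So did its B cell sum (1.04 FPKM, others 0.679 to 2.32). The T and NK cell sum of the raised day 3 control (1.82 FPKM, others 0.692 to 1.91) did too. Its endothelial sum (179 FPKM, others 159 to 186) did as well. Its B cell sum (0.154 FPKM, others 0.617 to 2.29) was the lowest. Neutrophil and dendritic sums were so the highest of their group in each of the 3 high libraries. Macrophage, T and NK cell, B cell and endothelial sums were not. The part of these cell types in the elevation was not tested.

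A kidney could also be low. In the 20-minute IRI group of day 1, replicate 6 was the lowest in 31 of 36 members and lay 1.49 log2 units (median) below the other 5, while the median over all genes was -0.21. Ifit3 had 4.94 FPKM in replicate 6 and 42.8 FPKM in replicate 4 as the ends of the group. Replicate 4 was the highest in 19 members, a share of 52.8% against 11.5% of all genes, while replicate 3 was the highest in 12, a share of 33.3% against 36.3% of all genes. This low kidney also had the lowest macrophage sum (42.6 FPKM, others 84.7 to 261) and injured tubule sum (558 FPKM, others 701 to 5180) of its group. Its neutrophil, T and NK cell, dendritic and endothelial sums were the lowest too. Its B cell sum (0.919 FPKM, others 0.766 to 3.13) was not, and the part of these was not tested.

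**Figure D2:**
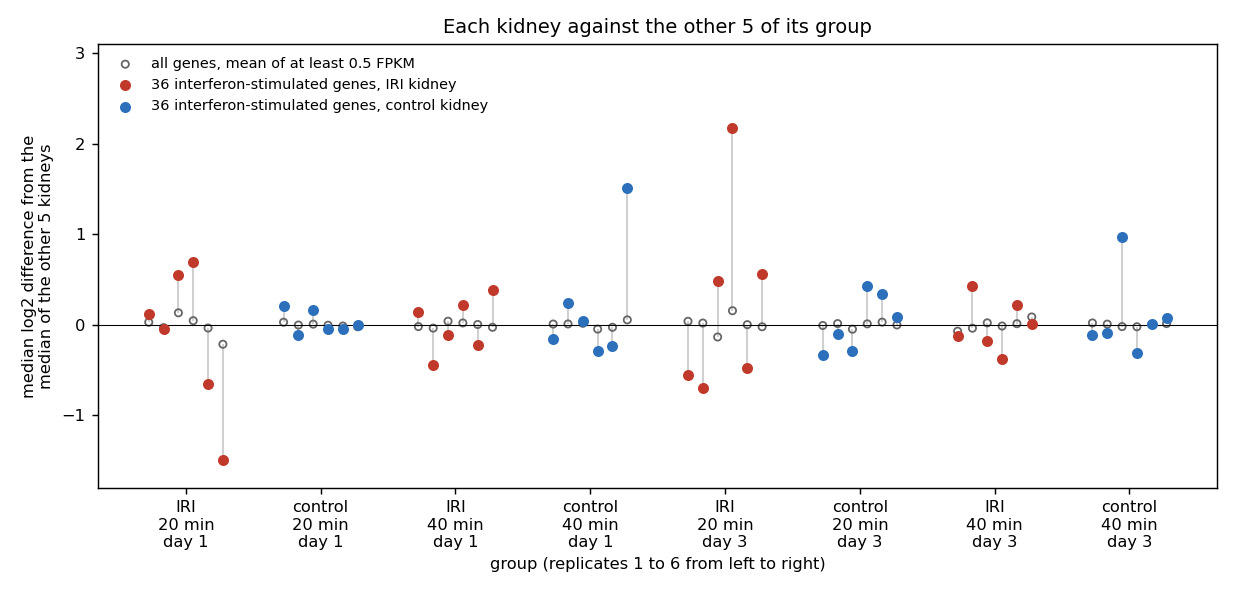
For each of the 48 kidneys, the median over the 36 members (filled circles, red for IRI and blue for control) and over all genes averaging 0.5 FPKM or more (open circles) of the log2 difference from the median of the other 5 kidneys of its group. Members reach 2.18 in the 20-minute IRI kidney 4 on day 3, 1.52 in the 40-minute control 6 on day 1 and 0.97 in the 40-minute control 3 on day 3, and fall to -1.49 in the 20-minute IRI kidney 6 on day 1, while the open circles stay near 0.

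Which members changed after IRI was tested by limma on log2(FPKM + 0.01), with p-values adjusted by Benjamini-Hochberg over all genes. A call meant an adjusted p under 0.05 together with a fold of 2 or more. In the severe model on day 3, 5 of 36 members were called higher (Tap1, Ifi27l2a, Psmb8, Bst2 and Irf1) and 2 lower (Ifi44 and Cmpk2). Among all 14270 genes tested, 15.3% were called higher and 5.98% lower, so the members' 5 and 2 are no more frequent than calls among all genes. On day 1 of the severe model 2 members were called higher (Tap1 and Ddx58) and 1 lower (Ifi44), where 15.7% of 14276 genes were called higher and 7.39% lower. In the mild model 1 member, Tap1, was called higher on day 3 (2.34% of 14247 genes higher and 1.73% lower) and none was called on day 1 (1.19% of 14238 genes higher and 0.442% lower). That count of 0 on day 1 by limma goes with 4 members higher and 0 lower at an unadjusted p under 0.05. No share of all genes was taken at that unadjusted cut, here or below, while 64.4% of them lay above 0 in this comparison. Without IRI replicate 5 or replicate 6 in turn, 1 and 2 members were called there, and without replicate 6, the low kidney, the share of all genes called was 4.15% higher and 0.583% lower. On day 3 of the mild model 2 members were called without IRI replicate 1, 2 or 5, or without control replicate 4 or 5. Shares of all genes in these fits, apart from that without replicate 6 of day 1, are not given.

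Differences at any fold were more frequent than calls, among the members and among all genes. At an adjusted p under 0.05 and any fold, 16 of 36 members were higher and 3 lower on day 3 of the severe model, against 37.2% and 20.0% of all genes. On day 1 of the severe model 7 were higher and 2 lower, both less frequent than the 39.7% and 18.4% of all genes. After 20 minutes 2 members passed on day 1 (Ddx58 and Tap1, 4.19% of all genes higher) and 2 on day 3 (Irf9 and Tap1, 8.47% of all genes higher). The median log2 difference of the 36 members was 0.38 and 0.49 in the mild model on days 1 and 3, against 0.10 and 0.02 over all genes tested. In the severe model it was 0.16 and 0.43, against 0.24 and 0.16 over all genes. Scaling the libraries to an equal median shifts the median of all genes on day 1 of the severe model to 0.02 and that of the members to -0.06, so the sign of the members' median there depends on the scaling. With that scaling the severe model had 2 members called higher and 4 lower on day 1 and 3 higher and 4 lower on day 3, while those called higher and lower among all genes made up 12.1% and 10.0% on day 1 and 13.0% and 7.57% on day 3.

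**Figure D3:**
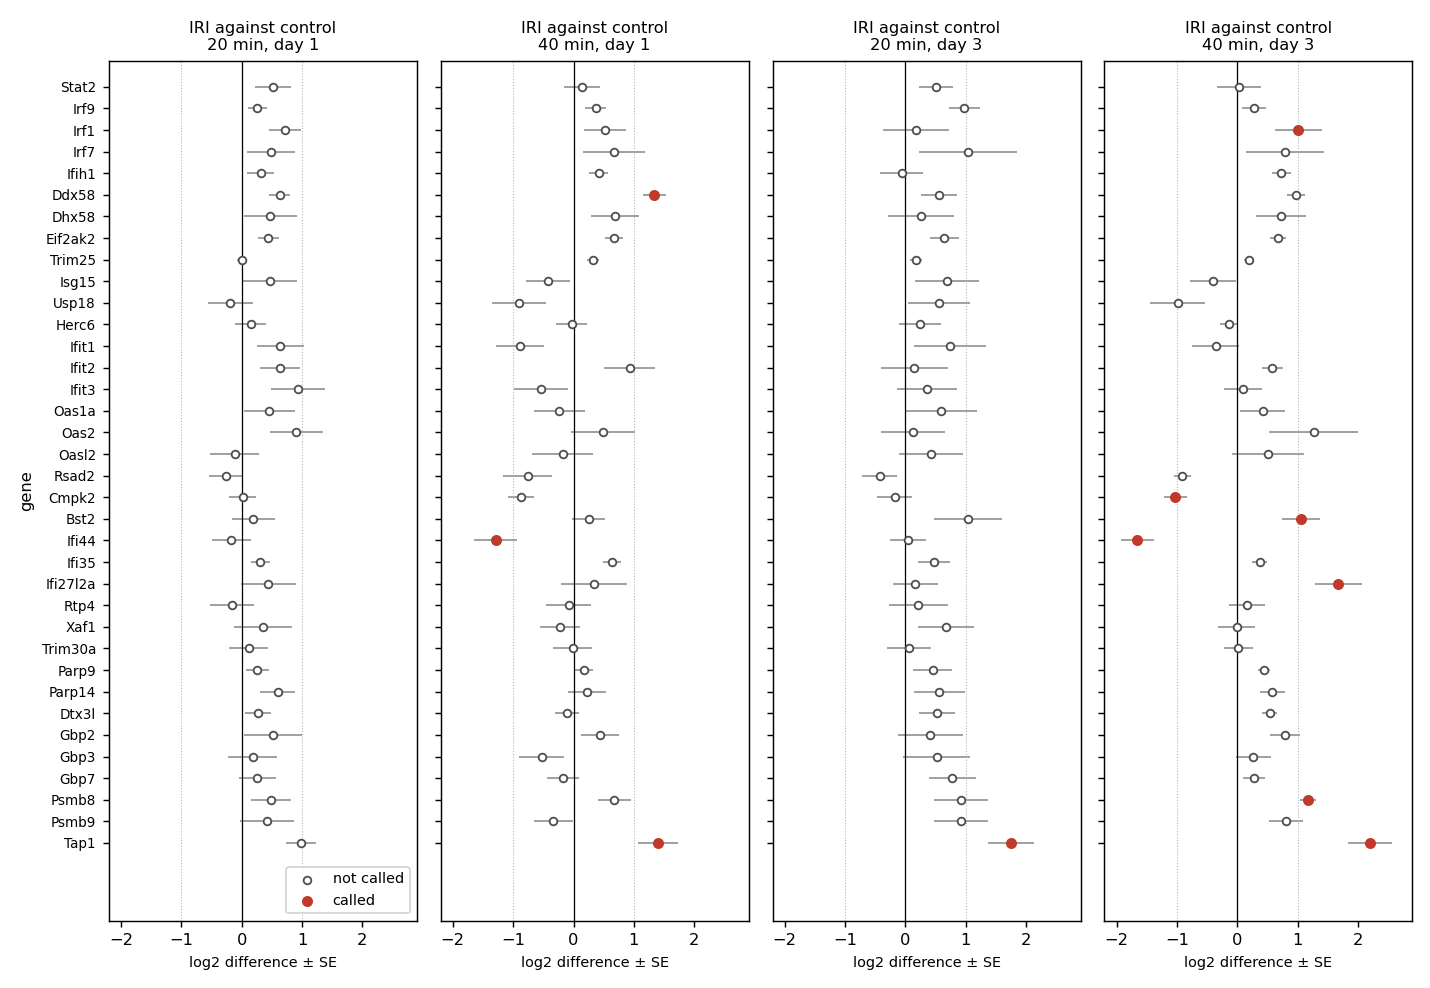
log2 difference of IRI minus control with its standard error (bars) for the 36 members, in 4 panels for the ischemia times and days; filled points are the genes called and dotted lines mark a fold of 2. The panel of 40 minutes on day 3 holds 7 filled points, of which Ifi44 and Cmpk2 lie left of 0, and the panel of 20 minutes on day 1 holds none.

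Of the 5 RNA sensors, 4 were higher at any fold on day 1 of the severe model and the same 4 on day 3 (Ddx58, Ifih1, Eif2ak2 and Trim25), where 39.7% and 37.2% of all genes were higher. Ddx58 on day 1 was the single call at a fold of 2. Ddx58 encodes RIG-I, which detects uncapped RNA in the cytoplasm. It had 5.26 to 12 FPKM (median 6.30) in the 40-minute IRI kidneys of day 1, against 2.46 to 3.71 FPKM (median 2.84) in their controls, and no kidneys overlapped. It rose by 1.34 ± 0.19 log2 units (SE, n = 6 each, adjusted p = 6.7e-05), and by 1.19 to 1.43 with 1 kidney left out. On day 3 it had 4.38 to 7.06 FPKM (median 6.18) after 40 minutes, against 2.32 to 3.97 FPKM (median 3.19) in the controls, again without overlap, and the difference of 0.97 ± 0.15 stayed just under a fold of 2. In the mild model it had 3.07 to 5.48 FPKM (median 3.82) on day 1, against 2.01 to 3.00 FPKM (median 2.68) in the controls, a difference of 0.63 ± 0.17 (adjusted p = 0.048).

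Ifih1, which encodes the sensor MDA5 of long double-stranded RNA, differed by 0.41 ± 0.15 and 0.73 ± 0.16 log2 units on days 1 and 3 of the severe model. Eif2ak2, the kinase PKR that halts translation on binding double-stranded RNA, differed by 0.68 ± 0.15 and 0.67 ± 0.13. Trim25, which modifies RIG-I, spread little, with 19.1 to 21.8 FPKM (median 21.2) in the 40-minute IRI kidneys of day 1, against 14.8 to 22.6 FPKM (median 15.8) in the controls. Its top control was again replicate 6, and the difference was 0.32 ± 0.10 (adjusted p = 0.012). On day 3 the difference was 0.20 ± 0.08 (adjusted p = 0.044). Dhx58 differed by 0.69 ± 0.39 and 0.72 ± 0.41 and did not pass.

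All 3 antigen processing genes were higher at any fold on day 3 of the severe model, and 2 of them at a fold of 2, where 37.2% and 15.3% of all genes were. Psmb8, the immunoproteasome subunit that trims peptides for MHC class I, had 8.93 to 16.3 FPKM (median 10.7) in the 40-minute IRI kidneys of day 3, against 4.68 to 5.91 FPKM (median 4.94) in the controls. All 6 IRI kidneys lay above all 6 controls, with a rise of 1.17 ± 0.14 log2 units (adjusted p = 9.4e-06), and 1.07 to 1.24 with 1 kidney left out. On day 1 it had 5.45 to 12.7 FPKM (median 7.27), against 3.05 to 8.34 FPKM (median 4.68) in the controls, a difference of 0.68 ± 0.27 (adjusted p = 0.042) with overlap. On day 3 of the mild model IRI kidneys 4 and 6 held 27.2 and 23.9 FPKM, and the other 4 held 4.84 to 7.35 FPKM, against 4.03 to 8.61 FPKM in the controls. The difference of 0.92 ± 0.45 did not pass (adjusted p = 0.18). Psmb9, a second immunoproteasome subunit, differed by 0.81 ± 0.28 (adjusted p = 0.024) on day 3 of the severe model.

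Tap1, a subunit of the transporter that carries peptides into the endoplasmic reticulum, had the largest log2 difference among the members called. It had 1.95 to 7.54 FPKM (median 5.37) in the 40-minute IRI kidneys of day 3, against 0.540 to 1.44 FPKM (median 1.03) in the controls, a rise of 2.19 ± 0.37 (adjusted p = 0.00021) without overlap. On day 1 it had 1.85 to 4.23 FPKM (median 2.67) after 40 minutes, against 0.587 to 2.0 FPKM (median 0.897), a rise of 1.40 ± 0.32 (adjusted p = 0.0024) with overlap. In the mild model it had 1.59 to 9.21 FPKM (median 2.89) on day 3, against 0.741 to 1.45 FPKM (median 0.951), a rise of 1.75 ± 0.39 (adjusted p = 0.0084). It is the only member called at 3 of the 4 IRI comparisons in this fit.

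The rise of Tap1 came largely from 1 of its 3 transcripts. The transcript of 2614 bases (chr17:34187802-34197219, plus strand, GRCm38) was listed above 0 in 6 of 6 IRI kidneys of 40 minutes on day 1, 4 of 6 on day 3, and in 2 and 4 of 6 IRI kidneys of 20 minutes on days 1 and 3. It was listed at 0 in all 24 control kidneys. That of 2953 bases (chr17:34187553-34197225) was above 0 in all 48 kidneys, with 0.412 to 1.74 FPKM in the 40-minute IRI kidneys of day 3, against 0.540 to 1.44 FPKM in the controls. With only the transcript of highest mean, the one of 2953 bases, the difference was -0.16, -1.05 and -0.42 log2 units in those 3 comparisons and the call was lost. The shortest, of 587 bases, added at most 0.875 FPKM in any kidney. The longest starts inside Psmb9, which lies on the opposite strand (212 shared bases, chr17:34187553-34187764). The study names a standard Kapa kit and does not state whether it keeps strand. If it does not, fragments there cannot be assigned to 1 of the genes. An exact 0 of a transcript can come from how fragments were split between transcripts.

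**Figure D4:**
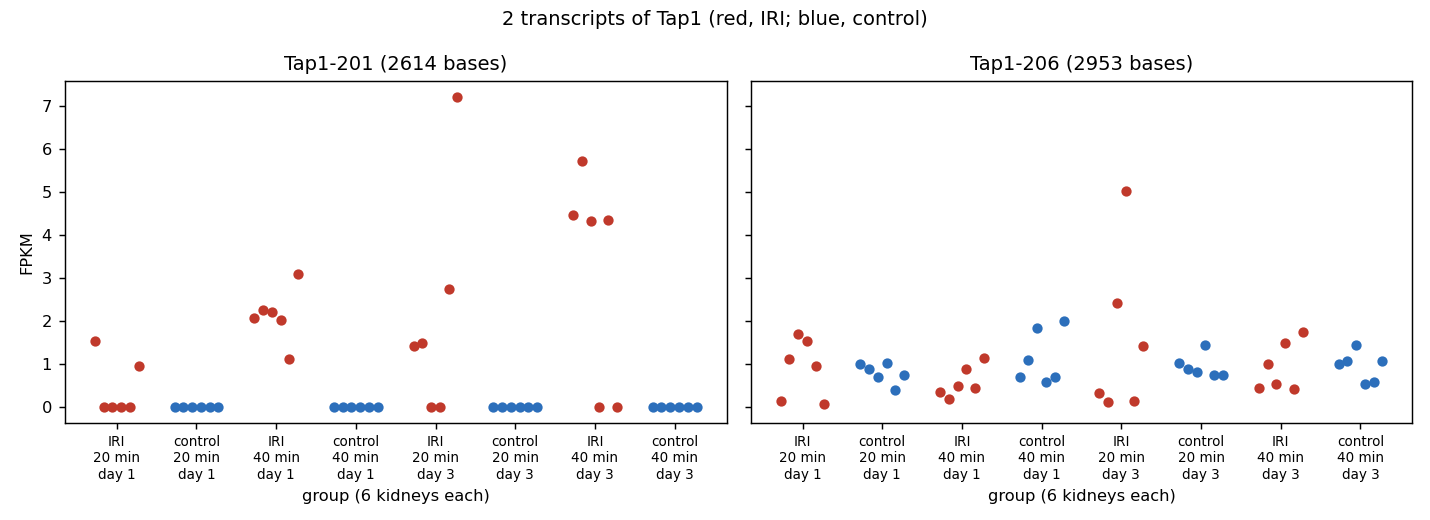
FPKM of the 2614-base (left) and the 2953-base transcript (right) of Tap1 in the 48 kidneys by group (red for IRI, blue for control, 6 kidneys each). The first is at 0 in all 24 controls and reaches 7.21 FPKM in an IRI kidney of 20 minutes on day 3, while the second is above 0 in every kidney of both kinds.

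Members of the antiviral group also fell in the severe model, and Ifi44 did so on both days. It had 0.989 to 2.78 FPKM (median 2.30) in the 40-minute IRI kidneys of day 1, against 3.30 to 15.2 FPKM (median 4.27) in the controls. On day 3 it had 0.929 to 2.47 FPKM (median 1.59), against 3.95 to 10.0 FPKM (median 4.6). No IRI kidney reached a control on either day. The fall was -1.29 ± 0.35 (adjusted p = 0.0072) and -1.65 ± 0.27 (adjusted p = 0.0002). The raised controls carried part of it: without control replicate 6 the value of day 1 was -0.97 and no longer reached a fold of 2, while without control replicate 3 that of day 3 was -1.46 and remained called.

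Cmpk2, a mitochondrial kinase of nucleotides, fell beside it on day 3. It had 2.09 to 3.96 FPKM (median 2.48) in the 40-minute IRI kidneys, against 4.0 to 7.45 FPKM (median 5.38) in the controls, -1.03 ± 0.19 (adjusted p = 0.00047). That value sits at the threshold of fold, and was -0.93 to -1.14 with 1 kidney left out, where the call was lost without IRI replicate 1, 3 or 4 or control replicate 3 or 6. On day 1 it had 2.57 to 4.85 FPKM (median 3.07), against 4.36 to 10.7 FPKM (median 5.76), a difference of -0.87 ± 0.22 (adjusted p = 0.004). Rsad2, the neighbour of Cmpk2 on chromosome 12 and the antiviral enzyme viperin, had 5.46 to 7.93 FPKM (median 6.46) on day 3, against 9.08 to 17.5 FPKM (median 11.9), with a difference of -0.91 ± 0.14 (adjusted p = 0.00012) just under a fold of 2. All 6 IRI kidneys lay below all controls.

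Other antiviral members went up on day 3. Ifi27l2a had 24.9 to 81.0 FPKM (median 41.1) in the 40-minute IRI kidneys, against 8.43 to 41.5 FPKM (median 10.8) in the controls. The top control, replicate 3, was the one raised across the list, and the other 5 controls reached 11.5 FPKM. The rise was 1.67 ± 0.39 (adjusted p = 0.0024), and 2.01 ± 0.26 without the 3 libraries that stand apart. On day 1 it had 5.65 to 35.5 FPKM (median 15.2), against 6.24 to 44.8 FPKM (median 8.45), and did not pass (0.34 ± 0.55, adjusted p = 0.61). Bst2 had 18.5 to 50.7 FPKM (median 21.3) on day 3, against 9.03 to 27.3 FPKM (median 11.2), with a rise of 1.06 ± 0.31 (adjusted p = 0.011). The difference was 0.86 without IRI replicate 1, and the call was also lost without IRI replicate 2 or without control replicate 1, 2 or 4. Ifi35, a protein of unsettled role in the response, differed by 0.63 ± 0.15 and 0.37 ± 0.13 on days 1 and 3, while Rtp4, Xaf1 and Trim30a did not pass in any of the 4 comparisons.

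**Figure D5:**
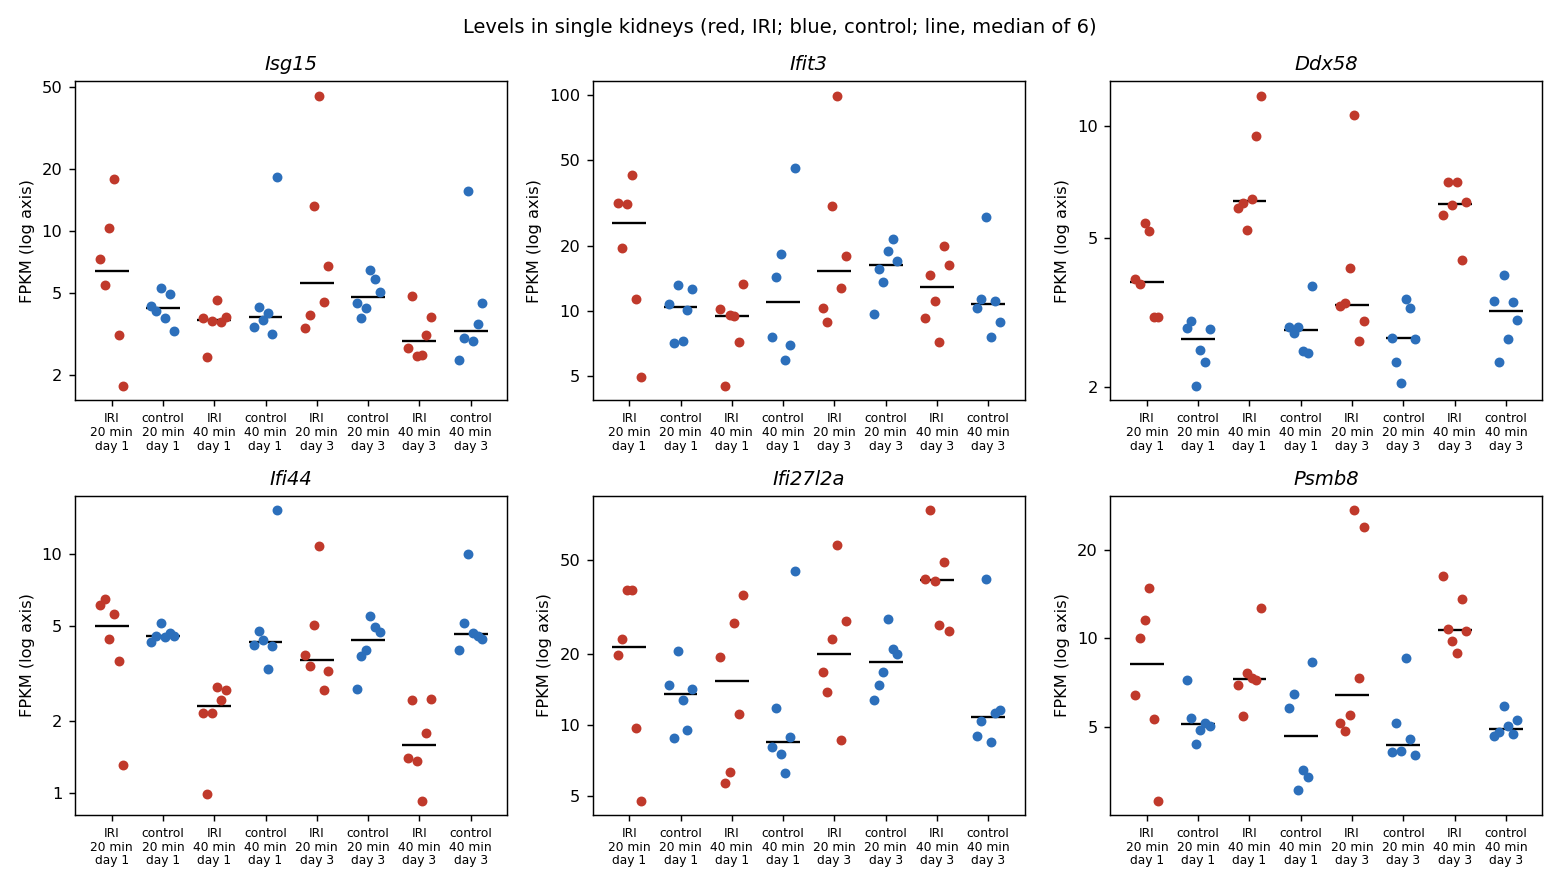
FPKM on log axes of 6 members in every kidney (red for IRI, blue for control, black line for the median of 6) in the 8 groups. Ddx58 and Psmb8 separate IRI from control after 40 minutes on day 3, Ifi44 lies lower in IRI kidneys after 40 minutes on both days, and Isg15 and Ifit3 show single high kidneys of up to 45.3 and 99.3 FPKM.

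Of the 4 signalling factors 1, Irf1, was called higher, on day 3 of the severe model, where 15.3% of all genes were. Irf9, which binds the ISRE, had 7.07 to 21 FPKM (median 10.9) in the 20-minute IRI kidneys of day 3, against 4.70 to 7.40 FPKM (median 5.82) in the controls. The difference of 0.97 ± 0.26 (adjusted p = 0.021) stayed just under a fold of 2, and it was called at up to 1.11 without IRI replicate 1, 2 or 5, or without control replicate 4 or 5. Irf1, induced above all by interferon gamma, had 4.71 to 12.3 FPKM (median 9.28) in the 40-minute IRI kidneys of day 3, against 2.01 to 10.2 FPKM (median 4.64). The rise of 1.01 ± 0.39 (adjusted p = 0.041) is at both thresholds. It was 0.79 to 1.26 with 1 kidney left out and was not called without IRI replicate 1, 2, 3, 4 or 5 or without control replicate 2, 4, 5 or 6. Irf1 is also spread over 6 transcripts, and the one of highest mean gave -0.70. Irf7, the factor that amplifies type I interferon production, had 14.0, 28.3 and 27.4 FPKM in IRI kidneys 3, 4 and 6 of 20 minutes on day 3 and 1.15 to 2.43 FPKM in the other 3, against 2.06 to 5.67 FPKM in the controls. It did not pass (1.03 ± 0.81, adjusted p = 0.42). Stat2 passed in none of the 4 comparisons.

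The ISG15 system, the IFIT genes and the OAS genes gave no call by limma in the 4 comparisons of IRI with control. Among all genes 1.19% and 2.34% were called higher in the mild model on days 1 and 3, and 0.442% and 1.73% lower. In the severe model 15.7% and 15.3% were called higher, and 7.39% and 5.98% lower. At an unadjusted p under 0.05 stood Ifit1 and Ifit2 on day 1 and Ifit2 on day 3 of the severe model. Isg15 had 2.48 to 4.83 FPKM (median 2.92) in the 40-minute IRI kidneys of day 3, against 2.38 to 15.6 FPKM (median 3.29), -0.40 ± 0.39 (adjusted p = 0.40). In the mild model it had 1.78 to 17.8 FPKM (median 6.38) on day 1, against 3.29 to 5.29 FPKM (median 4.21), 0.47 ± 0.45 (adjusted p = 0.53). Usp18, the protease that removes ISG15 and damps the receptor, differed by -0.99 ± 0.46 on day 3 of the severe model (adjusted p = 0.084). Control replicate 3, a high library, held 4.57 FPKM of Usp18 there, and the other controls 0.833 to 1.79 FPKM. Ifit3 had 4.94 to 42.8 FPKM (median 25.4) in the 20-minute IRI kidneys of day 1, against 7.08 to 13.1 FPKM (median 10.4) in the controls. The difference was 0.94 ± 0.45 (adjusted p = 0.20), and without IRI replicate 6, the low kidney, it was 1.33 ± 0.31 (adjusted p = 0.016). That kidney was singled out for low values of the members, Ifit3 among them. Ifit2 passed only at a low fold on day 3 of the severe model (0.58 ± 0.17, adjusted p = 0.012). Oasl2, of the 2′-5′ oligoadenylate synthetase-like family, had 0.731 to 6.85 FPKM (median 2.57) there, against 0.391 to 5.02 FPKM (median 1.80), and did not pass (0.51 ± 0.60, adjusted p = 0.49). Ifit1, which binds RNA lacking a methylated cap, differed by -0.88 ± 0.40 (adjusted p = 0.072) on day 1 of the severe model. Control replicate 6, a high library, held 11.8 FPKM of Ifit1 there, and the other controls 1.78 to 3.77 FPKM. Oas2 differed by 1.26 ± 0.74 (adjusted p = 0.16) on day 3, with the widest error of its role. Herc6, the mouse ligase for ISG15, lay between -0.14 and 0.24 log2 units in the 4 comparisons, and Oas1a between -0.23 and 0.59. Ifit3 and Oas1a have near-identical paralogs in the mouse, so their own levels are uncertain.

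The PARP and GBP members moved by small amounts. Parp9, Parp14 and Dtx3l, which act together on ADP-ribosylation and ubiquitination, were all higher at any fold on day 3 of the severe model (3 of 3, against 37.2% of all genes), at 0.44 ± 0.10, 0.58 ± 0.20 and 0.53 ± 0.13 log2 units. Parp9 had 7.86 to 10.5 FPKM (median 8.74), against 5.48 to 8.14 FPKM (median 6.43). Parp9 and Dtx3l share 682 bases on opposite strands on chromosome 16, where fragments cannot be told apart unless strand was kept. Of the guanylate-binding proteins, GTPases that attack vacuoles of intracellular microbes, Gbp2 passed on day 3 (0.79 ± 0.25, adjusted p = 0.015) while Gbp3 and Gbp7 did not. Gbp3 had 2.80 to 7.12 FPKM (median 4.54), against 2.49 to 7.69 FPKM (median 3.39), 0.27 ± 0.29 (adjusted p = 0.45).

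Leaving out the 3 libraries that stand apart, chosen after their values were seen, changed the calls of the severe model. On day 1, 5 members were then called higher (Ddx58, Dhx58, Ifit2, Irf7 and Tap1) and 0 lower, where 16.2% of all genes were higher and 7.24% lower. On day 3, 6 were called higher (Bst2, Ddx58, Ifi27l2a, Irf1, Psmb8 and Tap1) and 1 lower (Ifi44), where 15.2% were higher and 5.81% lower. On day 3 of the mild model Tap1 remained the single call, and the median of the members was 0.11 in place of 0.49. The members' median was 0.32 and 0.55 in the severe model on days 1 and 3, in place of 0.16 and 0.43.

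Markers of some other cells, though not of all, moved with the severe injury. Of 15 macrophage markers 11 were called higher on day 1 and 13 on day 3, where 15.7% and 15.3% of all genes were, and their sum was 125 to 660 FPKM and 290 to 711 FPKM in the IRI kidneys of days 1 and 3, against 53.0 to 109 FPKM and 40.6 to 65.5 FPKM in the controls. All 7 neutrophil markers with a value were called higher on day 1 and 6 on day 3. Of 9 T and NK cell markers 1 was called higher and 2 lower on day 1, where their sum was 0.476 to 4.83 FPKM (median 0.601) in the IRI kidneys, against 0.813 to 3.87 FPKM (median 1.85) in the controls. On day 3, 2 were called higher and 0 lower, and the sum was 1.11 to 12.5 FPKM (median 3.40), against 0.692 to 1.91 FPKM (median 1.39). Of 10 proximal tubule markers 9 were called lower on each day, where 7.39% and 5.98% of all genes were. Of 10 endothelial markers 1 was called higher on day 1 and 0 on day 3, with 0 lower. Of 4 dendritic markers 0 were called higher and 2 lower on day 1, and 1 higher and 1 lower on day 3. Of 3 B cell markers 0 were called on day 1, and 1 higher and 1 lower on day 3. The part of these cells in the changes of the members was not tested.

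Both ischemia times were compared directly in the IRI kidneys. On day 1 no member was called by limma in 40-minute against 20-minute IRI kidneys, where 13.7% of all genes were called in either direction. At an unadjusted p under 0.05, 4 members were higher and 3 lower, with no share of all genes at that cut. Without the 20-minute IRI kidney of replicate 6, 5 were called lower (Gbp3, Ifi44, Ifit1, Ifit3 and Isg15), where 6.33% of all genes were called lower and 6.85% higher. That kidney was singled out for its low values in the members, so leaving it out raises the 20-minute group for them. On day 3 Ifi44 was called lower, where 12.1% of all genes were called. It had 0.929 to 2.47 FPKM (median 1.59) in the 40-minute IRI kidneys, against 2.69 to 10.8 FPKM (median 3.59) in the 20-minute IRI kidneys, without overlap, and a difference of -1.38 ± 0.34 (adjusted p = 0.0087). Isg15 lay at 2.48 to 4.83 FPKM (median 2.92) after 40 minutes, against 3.40 to 45.3 FPKM (median 5.62) after 20 minutes, and did not pass (-1.32 ± 0.54, adjusted p = 0.078). The median over the members was -0.15 and -0.17 on days 1 and 3, against 0.14 and 0.16 over all genes. Without the kidneys that stand apart the median of day 3 was 0.16 and 3 members were called (Ifi27l2a and Ifit2 higher, Ifi44 lower), where 11.5% of all genes were called higher and 2.91% lower.

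Control kidneys of 40 minutes against those of 20 minutes gave 0 calls among the members by limma on both days (0.452% and 0.919% of all genes called), with 0 of either direction at an unadjusted p under 0.05 on day 1 and 1 higher and 1 lower on day 3. Without control replicate 3 of 40 minutes on day 3, 1 member (Oas2) was called lower there, where 0.431% of all genes were called higher and 0.417% lower.

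Whether the change after IRI itself differed between the ischemia times was tested as a difference of fold changes, called at an adjusted p under 0.05. On day 1, Ddx58 (0.71 ± 0.26, adjusted p = 0.045) and Trim25 (0.32 ± 0.12, adjusted p = 0.046) were more raised and Cmpk2 (-0.89 ± 0.33, adjusted p = 0.042) more lowered by 40 than by 20 minutes, where 29.8% of all genes were called. Each sits near the threshold, and the 3 calls were lost without 15 (Ddx58), 18 (Trim25) and 15 (Cmpk2) of the 24 kidneys, left out 1 at a time. With the replicate block for the mouse only Cmpk2 stayed called (adjusted p = 0.033), while Ddx58 had an adjusted p of 0.055 and Trim25 of 0.098. Cmpk2 was also not called without control replicate 6 of 40 minutes. Without the low IRI kidney of 20 minutes, 0 members were called more raised and 4 more lowered, where 17.7% and 13.0% of all genes were.

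On day 3, Ifi44 (-1.69 ± 0.42, adjusted p = 0.0044) and Ifi27l2a (1.51 ± 0.57, adjusted p = 0.048) were called, where 29.4% of all genes were. Usp18 had a difference of -1.54 ± 0.73 and did not pass (adjusted p = 0.12). Ifi44 had a difference of -1.65 between IRI and control after 40 minutes and of 0.04 after 20 minutes, and stayed called with every kidney left out in turn (-1.43 to -1.83). Ifi27l2a stayed between 1.26 and 1.85 but was not called without 18 of the 24 kidneys. Without the kidneys that stand apart 5 were called on day 3, namely Ifi44, Ifi27l2a, Ddx58, Ifih1 and Ifit2, 4 of them more raised and 1 more lowered by 40 minutes, where 25.0% and 10.6% of all genes were.

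Between the days, no member differed by limma in its change after IRI, where 0.0841% of all genes were called for 20 minutes and 13.9% for 40 minutes. At an unadjusted p under 0.05, 1 member was higher on day 3 for 20 minutes and 2 for 40 minutes, with none lower in either. No share of all genes was taken at that cut. With the replicate block 1 member, Dtx3l, was called for 40 minutes, where 4.79% of all genes were called higher and 5.99% lower. For 40 minutes, 1 member was called without control replicate 5 of day 3, or without control replicate 4 of day 1. Without IRI replicate 6 of day 1, 2 were called, and Psmb9 was among those called in each case. Shares of all genes in these 3 fits are not given, and the fit with every kidney called 13.9% of all genes.

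The rest of the pathway was read from a list of 54 genes, of which 44 had a value. The 8 interferon genes listed were without a value here, so the ligands were not analysed. In the severe model 9 of 44 were called higher and 2 lower on day 1, where 15.7% and 7.39% of all genes were, and 11 higher and 0 lower on day 3, where 15.3% and 5.98% were. After 20 minutes limma called 0 on day 1 and 2 on day 3 (B2m and Tap2), both higher, where 1.19% and 2.34% of all genes were called higher. On day 1, 10 were higher and none lower at an unadjusted p under 0.05, a cut at which no share of all genes was taken.

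Of 6 receptor subunits 3 were called higher on each day of the severe model, where 15.7% and 15.3% of all genes were, and 5 passed at any fold on each day. The subunits of the interferon gamma receptor, Ifngr1 and Ifngr2, rose by 1.24 ± 0.08 and 1.83 ± 0.09 log2 units on day 1 and by 1.54 ± 0.07 and 1.67 ± 0.07 on day 3, without overlap. Ifngr2 had 19.7 to 23.5 FPKM (median 22.1) in the 40-minute IRI kidneys of day 1, against 5.37 to 7.13 FPKM (median 6.13) in the controls. Ifnlr1, of the type III receptor, rose by 1.34 ± 0.19 and 1.39 ± 0.21, while Ifnar1 and Ifnar2 of the type I receptor stayed under a fold of 2 (Ifnar1, 0.78 ± 0.09 and 0.59 ± 0.08). Stat3, which acts in the cytokine response, rose by 1.53 ± 0.13 and 1.35 ± 0.08, and Socs3, an inhibitor of cytokine signalling, by 2.78 ± 0.25 and 3.08 ± 0.39.

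Of 12 other genes of nucleic acid sensing, 3 were called higher on each day of the severe model, where 15.7% and 15.3% of all genes were. Tmem173, which encodes STING, the adaptor of cytoplasmic DNA sensing, rose by 2.49 ± 0.24 and 2.31 ± 0.20 log2 units, Tlr7 by 1.67 ± 0.34 and 2.48 ± 0.21, and Ikbke by 1.22 ± 0.36 and 1.73 ± 0.29. Among 13 targets mainly of interferon gamma, B2m, the light chain of MHC class I, rose by 1.24 ± 0.14 on day 3 and by 1.03 ± 0.31 on day 3 of the mild model. Psmb10, the third immunoproteasome subunit, rose by 1.08 ± 0.13 and 1.35 ± 0.13 in the severe model. Cxcl9, a chemokine that draws T cells, had 0 to 0.15 FPKM (median 0.0445) in the 40-minute IRI kidneys of day 1, against 0.255 to 0.841 FPKM (median 0.470) in the controls, and fell by 3.41 ± 0.76 on the log2 scale (adjusted p = 0.0018). At this level the fold depends on the pseudocount. Igtp, a GTPase induced by interferon gamma, fell by 1.07 ± 0.25 on the same day.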

How the data were processed

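RNA of 48 kidney cortices (24 mice, both kidneys, mRNA enrichment, a standard kit without stated strandedness) was sequenced by the authors, checked with FastQC 0.11.7, aligned with HISAT2 2.1.0 to GRCm38 and quantified with Ballgown. The deposited table gives FPKM per transcript, and each of its 33953 transcripts reaches at least 0.5 FPKM in 1 library or more, so a gene below that level has no value here. It holds no counts, so count tests were not used, and the depth is an estimate from the steps between low values.

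Transcript identifiers were matched to GENCODE M21 symbols (33871 of 33953) and FPKM summed per gene. Comparisons were made with limma 3.58.1 (R 4.3.3, trended prior) on log2(FPKM + 0.01), for genes averaging 0.01 FPKM or more over the samples compared. The size of a change in a gene near 0 depends on this pseudocount. Only the groups compared entered a fit. P-values were adjusted by Benjamini-Hochberg over all genes. A call needed an adjusted p under 0.05 together with a fold of 2 or more. Differences of fold changes needed the p alone. The fits were tested on simulated data, in which genes varied independently and the planted folds were well above 2. That test does not show how the fits do at a fold near 2 or when members rise together. Tables and promoter searches used Python 3.11.15.

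The replicate number names the mouse, so the left and right kidney of a number are paired. Their deviations from the group means had a median correlation over all genes of 0.00, 0.10, 0.05 and 0.00 for 20 minutes day 1, 40 minutes day 1, 20 minutes day 3 and 40 minutes day 3. Over the 36 members it was -0.01, 0.22, 0.42 and -0.07, positive in 18, 27, 31 and 14 of them. The reported fit has no block, and the fit with the mouse as a replicate block was an alternative. Other alternatives were pseudocounts of 0.1 and 1, other filters, equal medians, the transcript of highest mean, all 8 groups in 1 fit, array weights, leaving out each kidney and leaving out the 3 high libraries together.

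The members, the pathway genes and the marker lists were chosen with earlier results of these data known. The members given in full were chosen by role and by being called, as fixed with the lists. No other column of per-sample values was present.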

Additional observations from a re-analysis of the deposited data

Results flagged for a closer look

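Single kidneys lay far from the other 5 of their group in 27 of 104 tests by Dixon's gap ratio over 13 members given in full. Over all members it was 77 of 288. The nominal rate of about 1 in 20 holds for independent, normally spread values. Here the ratio was taken on FPKM and the members rose together in the same kidneys. No share over all genes was taken, so these counts do not measure chance. Most flags came from 3 kidneys. In the 40-minute control kidney 6 of day 1, which stood out for 22 of 36 members, the values were 18.2 FPKM for Isg15, 45.9 FPKM for Ifit3, 9.93 FPKM for Oasl2, 44.8 FPKM for Ifi27l2a, 15.2 FPKM for Ifi44, 10.7 FPKM for Cmpk2, 22.6 FPKM for Trim25 and 3.71 FPKM for Ddx58. In the 20-minute IRI kidney 4 of day 3, which stood out for 25 members, they were 45.3 FPKM for Isg15, 99.3 FPKM for Ifit3, 18.8 FPKM for Oasl2, 27.1 FPKM for Parp9, 10.7 FPKM for Ddx58, 10.8 FPKM for Ifi44, 10.1 FPKM for Cmpk2 and 25.4 FPKM for Trim25. In the 40-minute control kidney 3 of day 3, which stood out for 18 members, they were 15.6 FPKM for Isg15, 27.3 FPKM for Ifit3, 5.02 FPKM for Oasl2, 41.5 FPKM for Ifi27l2a, 7.69 FPKM for Gbp3 and 10.0 FPKM for Ifi44.

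The others were single values. Psmb8 was high at 12.7 FPKM in the 40-minute IRI kidney 6 of day 1, at 7.20 FPKM in the 20-minute control kidney 1 of day 1 and at 8.61 FPKM in the 20-minute control kidney 4 of day 3. Ifi44 was low at 0.989 FPKM in the 40-minute IRI kidney 2 of day 1, and Oasl2 at 1.48 FPKM in the 20-minute control kidney 1 of day 1.

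The change after IRI differed between 40 and 20 minutes, by the limma test of the difference of fold changes, for 3 members on day 1 (Cmpk2 -0.89, Ddx58 0.71 and Trim25 0.32 log2 units) and for 2 on day 3 (Ifi44 -1.69 and Ifi27l2a 1.51 log2 units).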

How the results depend on the processing

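Calls among the 36 members moved with the processing, and the cause was not tested. With a pseudocount of 1 FPKM the severe model had 1 call on day 1 and 4 on day 3. Of all genes 8.48% and 8.04% were then called higher and 4.43% and 3.17% lower. With equal medians it had 6 on day 1, where 12.1% of all genes were higher and 10.0% lower. With that scaling 40 against 20 minutes of IRI had 3 calls on each day (6.42% and 7.94% of all genes higher, 7.17% and 3.34% lower). With the transcript of highest mean, 0 members were called in the mild model on day 3 (1.95% of all genes higher, 1.59% lower). The difference between ischemia times then had 0 and 1 calls on days 1 and 3 (14.4% and 14.9% of all genes higher, 9.45% and 7.3% lower). With that transcript Tap1 turned to -0.42 (mild, day 3), -1.05 (severe, day 1) and -0.16 (severe, day 3) and Irf1 to -0.70 (severe, day 3). With all 8 groups in 1 fit, 40 against 20 minutes of IRI had 1 and 3 calls on days 1 and 3 (8.41% and 10.4% of all genes higher, 6.39% and 2.86% lower). The difference between ischemia times had 1 on day 3 (19.8% of all genes higher, 9.1% lower). With array weights the mild model had 1 call on day 1 (3.34% of all genes higher, 0.611% lower). Then 40 against 20 minutes of IRI had 5 and 2 on days 1 and 3 (8.59% and 11.5% higher, 7.4% and 2.95% lower). The difference between ischemia times had 6 and 4 (24.6% and 25.6% higher, 15.5% and 11.7% lower). That between days had 2 for 20 minutes (3.73% higher, 9.59% lower) and 2 for 40 minutes (11.1% higher and a larger share lower). All these shares were above those of the fit without weights. Without the 3 libraries, an alternative chosen after seeing the data, the severe model had 5 calls on day 1 (16.2% of all genes higher, 7.24% lower). On day 3, 40 against 20 minutes had 3 in IRI kidneys (11.5% higher, 2.91% lower) and 1 in control kidneys (0.431% and 0.417%). The difference between ischemia times had 5 on day 3 (25.0% higher, 10.6% lower). With the replicate block for the mouse, the difference between ischemia times on day 1 had 1 call (17.1% of all genes higher, 10.8% lower). That between days for 40 minutes had 1 (4.79% higher, 5.99% lower), and the block changed no other count.

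Leaving out each kidney in turn gave 0 to 2 and 1 to 2 calls in the mild model on days 1 and 3, 3 to 5 and 4 to 7 in the severe model, 0 to 5 and 1 to 3 between the IRI kidneys, 0 to 1 between the control kidneys on day 3, 0 to 4 and 1 to 5 in the difference between ischemia times, and 0 to 2 in that between days for 40 minutes. Ddx58 on day 1 and Ifi44, Ifi27l2a, Psmb8 and Tap1 on day 3 of the severe model kept their call in each of these. Shares of all genes are not set beside the ranges above, which say only how far the counts moved. Depth is approximate, so low members such as Oas2 and Dhx58 carry a counting error that is not known.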
